A study of Homo sapiens with 9 samples.

Results

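Dual-specificity phosphatases of the MAP kinase pathway (DUSPs) were followed in Raji, an established human B-cell line grown from a Burkitt lymphoma. The set was fixed as a list of 9 genes: DUSP1, DUSP2, DUSP4 and DUSP5, the nuclear phosphatases known as inducible, and DUSP6, DUSP7, DUSP10, DUSP16 and DUSP22, which act in the cytoplasm or in both compartments. Of these 9 genes, 7 had values among the 15436 listed genes, and all 7 were abundant enough to test among 11346 tested genes. DUSP4 and DUSP6 were not analysed here. The 9 RNA libraries fell into 3 groups of 3, all from Raji cells: cells given DMSO, the solvent, as controls; cells given hydroxyurea (HU), an inhibitor of ribonucleotide reductase that slows replication forks; and cells given thymidine with nocodazole (Thy-Noc), a block of DNA synthesis combined with a microtubule poison. The labels give no dose, no time and no word on separate cultures. A p-value here therefore sets the difference between groups only against the spread of these libraries within groups, which may be technical. All results concern 1 cell line.

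MAP kinases (ERK, JNK and p38) are switched on when a kinase above them adds phosphate to a threonine and a tyrosine in the activation loop. DUSPs remove both phosphates. DUSP1, DUSP2, DUSP4 and DUSP5 are transcribed soon after the pathway is activated and act in the nucleus as a feedback brake, while DUSP6 and DUSP7 hold ERK in check in the cytoplasm, DUSP10 and DUSP16 prefer JNK and p38, and DUSP22 is a small atypical member without the MAP kinase docking domain of the others. In B cells, antigen receptor signals run through RAS and ERK, and DUSP2 was first known as a phosphatase of activated lymphocytes.

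Total counts ran from 74940755 to 110485145 per library, and the members' own counts from 179 (DUSP1) to 11067 (DUSP22), apart from 1 library of DUSP22 described later. The B-cell markers were present as the label implies, with a summed level of 1650 to 2616 CPM (a gene's count relative to its library's scaled total) over 8 of 8 genes in the 9 libraries. Of 8 T and NK cell markers, 1 was listed, at 0.913 CPM or less. For 10 mitotic genes the summed level was 1307 to 1365 CPM in DMSO, 540.3 to 746 CPM in HU and 1118 to 1538 CPM in Thy-Noc, so the summed level in Thy-Noc, whose label names a mitotic poison, overlapped that of the controls. In Thy-Noc BUB1 and CDC20 lay above all controls without passing the test, and the other 8 genes overlapped them. In bulk RNA, a change in the share of cells in a state and a change in RNA per cell cannot be told apart.

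The 7 members lie on 7 chromosomes of GRCh38, by GENCODE release 29. DUSP1 (ENSG00000120129) is at chr5:172768090-172771195, DUSP2 (ENSG00000158050) at chr2:96143166-96145440 and DUSP5 (ENSG00000138166) at chr10:110497838-110511544. DUSP10 (ENSG00000143507) is at chr1:221701424-221742176, DUSP7 (ENSG00000164086) at chr3:52048919-52056550, DUSP16 (ENSG00000111266) at chr12:12474210-12562383 and DUSP22 (ENSG00000112679) at chr6:291630-351355. DUSP5 and DUSP22 are on the plus strand and the other 5 on the minus strand. The values are sums over whole genes, so exons, introns and untranslated parts were not told apart. An antisense gene overlaps DUSP1 and a long intergenic RNA gene on the opposite strand overlaps DUSP16, and no source used here says whether the counting used strand, so reads of the partners cannot be told apart.

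Upstream sequences are shown for the 3 members that were called higher in HU and were matched in the RefSeq table used here. Each run below is the 250 bases before the RefSeq start (GRCh38.p14), read 5′ to 3′ on the gene's minus strand. The windows are chr5:172771196-172771445 for DUSP1, chr2:96145441-96145690 for DUSP2 and chr1:221742090-221742339 for DUSP10 at the first of its 2 listed starts. Capitals mark every match, on either strand, to 7 motifs: the cyclic AMP response element (CRE) TGACGTCA, its half-site TGACG, the AP-1 site TGANTCA, the E-box CACGTG, the TATA box TATAAA, the CCAAT box CCAAT and the NF-kB consensus.
DUSP1: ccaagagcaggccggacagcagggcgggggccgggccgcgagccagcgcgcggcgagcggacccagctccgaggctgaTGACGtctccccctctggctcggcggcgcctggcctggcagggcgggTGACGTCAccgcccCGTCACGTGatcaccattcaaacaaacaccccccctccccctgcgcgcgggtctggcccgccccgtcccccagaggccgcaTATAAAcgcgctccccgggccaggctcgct
DUSP2: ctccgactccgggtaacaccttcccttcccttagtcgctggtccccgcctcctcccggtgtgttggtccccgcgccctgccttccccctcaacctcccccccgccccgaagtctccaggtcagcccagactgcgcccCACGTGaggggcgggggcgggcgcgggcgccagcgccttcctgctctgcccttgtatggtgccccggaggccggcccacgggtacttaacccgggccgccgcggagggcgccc
DUSP10: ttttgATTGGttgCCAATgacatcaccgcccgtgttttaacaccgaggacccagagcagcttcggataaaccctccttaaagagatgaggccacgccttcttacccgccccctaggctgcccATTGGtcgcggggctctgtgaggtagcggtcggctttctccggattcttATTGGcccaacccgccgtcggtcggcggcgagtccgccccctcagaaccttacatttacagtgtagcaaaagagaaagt
DUSP1 held 1 full CRE from −125 to −118 bases of the start, 4 half-sites of which 2 lie inside that CRE, an E-box from −108 to −103 that overlaps a further half-site, and a TATA box from −30 to −25. DUSP2 held 1 E-box, from −113 to −108, and DUSP10 held 4 CCAAT boxes at its first start and no match at its second. The DUSP7 window held 1 NF-kB match, and those of DUSP16 and DUSP22 held none of the 7 motifs. No sequence is shown for DUSP5. Among 35116 windows of the same length, 1.65% held the full CRE, 21.2% the half-site, 6.57% the AP-1 site, 6.34% an E-box, 10.7% the TATA box, 32% a CCAAT box and 9.96% the NF-kB consensus. A match is a description of these letters only.

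HU against DMSO addressed how these cells respond to replication stress. All 3 measured nuclear inducible members, DUSP1, DUSP2 and DUSP5, rose in HU, and so did DUSP10, a JNK and p38 phosphatase from the other class. DUSP7 was lower without passing the test, DUSP16 stayed close to its control level, and DUSP22 was higher in each HU library than in each DMSO library but did not pass. Thus 4 of 7 members were called higher and 0 lower (edgeR quasi-likelihood test, Benjamini-Hochberg adjusted p under 0.05), beside 2.0% of all tested genes called higher and 1.56% called lower. The HU and DMSO libraries did not overlap in 6 of the 7 members, 5 of them higher and 1 lower in HU, beside 15.5% of tested genes that stood apart in the higher and 15.3% in the lower direction.

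DUSP5, the ERK phosphatase of the nucleus, had 5.25, 3.15 and 4.85 CPM in DMSO replicates 1, 2 and 3 against 33.2, 17.8 and 32.5 CPM in HU replicates 1, 2 and 3. The lowest HU library was well above the highest DMSO library. The mean rose from 4.41 ± 1.12 to 27.8 ± 8.71 CPM (SD, n = 3 each), 6.30-fold (log2 fold change 2.66 ± 0.46 SE, edgeR quasi-likelihood adjusted p 0.0333).

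DUSP1, which acts on p38, JNK and ERK, had the fewest counts of the members called, with 2.36, 2.09 and 2.28 CPM in the DMSO libraries against 7.0, 5.05 and 5.84 CPM under HU. The groups did not overlap, and every HU library was well above the DMSO mean of 2.24 ± 0.14 CPM. The HU mean was 5.96 ± 0.98 CPM, 2.66-fold higher (log2 fold change 1.41 ± 0.19 SE, edgeR quasi-likelihood adjusted p 0.0222).

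DUSP2, an ERK and p38 phosphatase of blood cells, had 18.7, 17.1 and 19.5 CPM in the controls against 33.5, 40.8 and 31.4 CPM under HU. HU replicate 2, the lowest HU library for DUSP1 and DUSP5, was here the highest. The mean rose from 18.4 ± 1.24 to 35.2 ± 4.94 CPM, 1.91-fold (log2 fold change 0.93 ± 0.16 SE, edgeR quasi-likelihood adjusted p 0.0321).

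For DUSP10 the controls held 12.7, 10.7 and 12.4 CPM, and the HU libraries 51.3, 32.6 and 45.8 CPM. Again no HU library came near the controls, and HU replicate 2 was the lowest of its group. The mean rose from 11.9 ± 1.12 to 43.2 ± 9.62 CPM, 3.62-fold (log2 fold change 1.86 ± 0.26 SE, edgeR quasi-likelihood adjusted p 0.0223). The largest rise after DUSP5 thus belonged to a gene outside the class listed here as nuclear inducible. The classes are those of the fixed list and do not say that the other members cannot be induced.

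**Figure D1:**
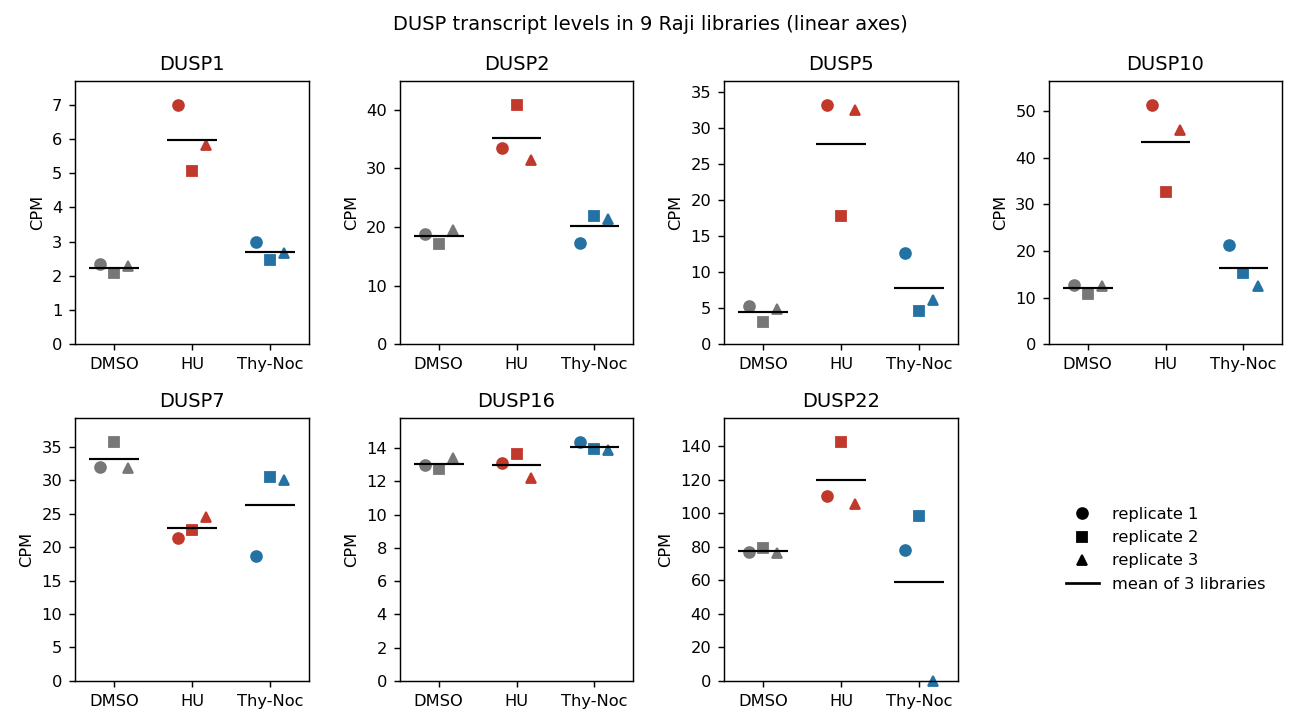
CPM (y axis, linear from 0) of each of the 7 members in the 9 libraries, with groups on the x axis, symbols for replicates and a bar for the mean of 3 libraries. In DUSP1, DUSP2, DUSP5 and DUSP10 the 3 HU points lie above all DMSO and Thy-Noc points, while DUSP16 stays between 12.2 and 14.4 CPM and DUSP22 has 1 Thy-Noc point at 0.0621 CPM.

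The calls rest on few libraries. Without any 1 of the 3 DMSO libraries, or without HU replicate 1 or 3, the calls of DUSP1, DUSP2, DUSP5 and DUSP10 all ended; that of DUSP2 also ended without HU replicate 2 or Thy-Noc replicate 2 or 3, and that of DUSP5 without Thy-Noc replicate 3. In the fits that lost the call, the edgeR quasi-likelihood adjusted p was 0.0658 to 0.0848 for DUSP1, 0.0508 to 0.121 for DUSP2, 0.0559 to 0.126 for DUSP5 and 0.0658 to 0.0856 for DUSP10, and the log2 fold changes stayed at 1.28 to 1.45, 0.81 to 1.01, 2.47 to 2.80 and 1.72 to 1.90. Fitted on only the 6 libraries of HU and DMSO, none of the 4 passed (edgeR quasi-likelihood adjusted p 0.0684, 0.0748, 0.0616 and 0.0564 for DUSP1, DUSP2, DUSP5 and DUSP10).

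Among the members that did not pass, DUSP7, the cytoplasmic ERK phosphatase, had 32, 35.8 and 31.8 CPM in the controls against 21.4, 22.6 and 24.5 CPM under HU. All HU libraries were below all DMSO libraries, with a log2 fold change of −0.54 ± 0.20 SE and an edgeR quasi-likelihood adjusted p of 0.186. DESeq2, which called 2135 of the 11346 tested genes, called it lower (log2 fold change −0.56, DESeq2 adjusted p 0.0451).

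DUSP16, a JNK and p38 phosphatase like DUSP10, had 13, 12.8 and 13.4 CPM in the controls against 13.1, 13.6 and 12.2 CPM under HU. The groups overlapped, and the log2 fold change was −0.01 ± 0.12 SE (edgeR quasi-likelihood adjusted p 0.985). It had the smallest SE of the 7 members in each of the 3 comparisons.

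DUSP22, an atypical phosphatase that acts on JNK signalling, had 76.8, 79 and 76 CPM in the controls against 110.4, 143 and 106 CPM under HU. The groups did not overlap, but the log2 fold change of 0.63 had an SE of 1.51 (edgeR quasi-likelihood adjusted p 0.889). The fit takes 1 estimate of spread from all 9 libraries, and Thy-Noc replicate 3 held 6 counts of DUSP22 (0.0621 CPM) against 78.3 and 98.3 CPM in Thy-Noc replicates 1 and 2. Without that library the log2 fold change was 0.64 ± 0.15 SE (edgeR quasi-likelihood adjusted p 0.0915). DUSP22 has 16 annotated transcripts. It was the only member in which the highest library of a group was at least 10 times the lowest after 0.5 CPM was added, a spread seen in 1838 tested genes (16.2%).

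Thy-Noc against DMSO asked what the block with thymidine and nocodazole did to the same genes. None of the 7 members passed by edgeR's quasi-likelihood test (adjusted p 0.9998 for each), 0 had an unadjusted p under 0.05, and DESeq2 and limma called 0 as well. Across all tested genes 0.0353% were called in either direction (0.0264% higher and 0.00881% lower), and 4.49% had an unadjusted p under 0.05. DUSP5 had the largest positive value, at 12.6, 4.66 and 6.12 CPM in Thy-Noc replicates 1, 2 and 3 (log2 fold change 0.82 ± 0.44 SE), and its range overlapped that of DMSO. DUSP10 stood at 21.2, 15.3 and 12.4 CPM (0.45 ± 0.25 SE) and also overlapped DMSO. For both genes Thy-Noc replicate 1 was the highest library of the group.

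The remaining members moved less. DUSP1 stood at 2.98, 2.47 and 2.68 CPM in Thy-Noc, each library above DMSO (log2 fold change 0.27 ± 0.19 SE), and DUSP2 at 17.2, 21.8 and 21.3 CPM (0.13 ± 0.16 SE). DUSP7 stood at 18.7, 30.5 and 30.0 CPM, each below DMSO (−0.33 ± 0.20 SE). DUSP16 stood at 14.4, 14.0 and 13.9 CPM, each above DMSO by a small margin (0.11 ± 0.12 SE). Of the 7 members, 2 stood apart from DMSO in the higher and 1 in the lower direction, beside 5.18% and 4.79% of tested genes. DUSP22 had a log2 fold change of −0.39 ± 1.51 SE, which became 0.20 ± 0.17 SE without Thy-Noc replicate 3.

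Whether the treatments differed was tested directly in HU against Thy-Noc. DUSP1 and DUSP10 were higher in HU, at log2 fold changes of 1.14 ± 0.19 and 1.40 ± 0.25 SE (edgeR quasi-likelihood adjusted p 0.0414 and 0.0481). DUSP2, at 0.81 ± 0.16 SE, and DUSP5, at 1.84 ± 0.45 SE, did not pass (adjusted p 0.0567 and 0.0916 by the same edgeR test), although the libraries of neither gene overlapped between the groups. Thus 2 of 7 members were called higher and 0 lower, beside 0.696% and 1.06% of tested genes (1.75% in either direction), and 4 had an unadjusted p under 0.05, beside 19.4%. DESeq2 called all 4 of these genes, beside 1826 of the 11346 tested genes. The HU libraries lay above all Thy-Noc libraries in 5 members and below them in 1, DUSP16, beside 12.9% and 12.0% of tested genes. The DUSP1 and DUSP10 calls ended without any 1 of the 9 libraries (edgeR quasi-likelihood adjusted p 0.0510 to 0.132 for DUSP1 and 0.0510 to 0.136 for DUSP10), without a filter on low counts (0.0753 and 0.0711) and on only the 6 libraries compared (0.155 and 0.158). DUSP7, DUSP16 and DUSP22 had log2 fold changes of −0.21 ± 0.20, −0.12 ± 0.12 and 1.02 ± 1.52 SE and did not pass. These comparisons share libraries, so the values of a member in them are not independent.

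**Figure D2:**
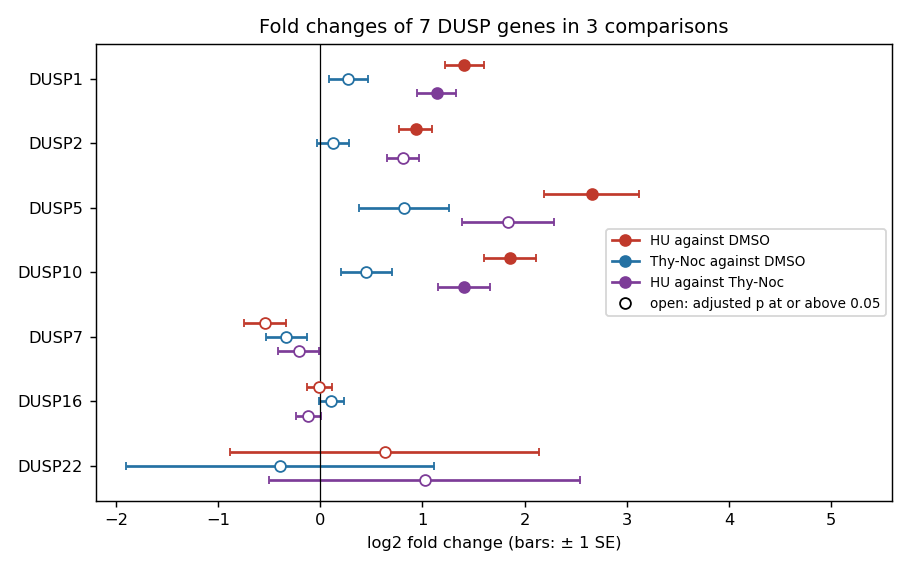
Log2 fold changes (x axis, bars ± 1 SE) of the 7 members in the 3 comparisons, with filled points for an adjusted p under 0.05. DUSP1, DUSP2, DUSP5 and DUSP10 are filled in HU against DMSO, at 0.93 to 2.66, and no point is filled in Thy-Noc against DMSO; the wide bars of DUSP22 come with its Thy-Noc library at 6 counts.

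For HU against DMSO, the 3 measured nuclear inducible members had log2 fold changes from 0.93 to 2.66 with a median of 1.41. The other 4 ran from −0.54 to 1.86 with a median of 0.31, beside a median of 0.02 over all tested genes. DUSP10 fell inside the range of the first class, and DUSP7, DUSP16 and DUSP22 fell below it. In Thy-Noc against DMSO the medians were 0.27 and −0.11, beside 0.01 over all tested genes. Members are not replicates, and the classes were not tested against each other.

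Levels between genes were compared per kilobase of merged exon. The merged length takes in the exons of all annotated transcripts, 16 for DUSP22 and 1 for DUSP1. Which transcripts were expressed is not known, so the order between genes depends on that choice of length. In DMSO the order was DUSP22 at 13.6 ± 0.28, DUSP2 at 9.55 ± 0.64, DUSP7 at 5.88 ± 0.40, DUSP10 at 4.10 ± 0.38, DUSP16 at 2.28 ± 0.06, DUSP5 at 1.69 ± 0.43 and DUSP1 at 1.11 ± 0.07 CPM per kb (SD, n = 3). The ranges of neighbours in this order did not overlap. DUSP2, of the nuclear inducible class, was thus well expressed in control cells, while DUSP1 and DUSP5 were at the bottom. In HU, DUSP10 at 14.8 ± 3.30 and DUSP5 at 10.6 ± 3.33 CPM per kb stood above DUSP7 at 4.04 ± 0.28, and DUSP16 at 2.27 ± 0.13 was the lowest, below DUSP1 at 2.95 ± 0.48. The HU ranges of DUSP22 (21.0 ± 3.55) and DUSP2 (18.2 ± 2.56), of DUSP2 and DUSP10, and of DUSP10 and DUSP5 overlapped. In Thy-Noc DUSP2 (10.4 ± 1.30 CPM per kb) and DUSP22 had nearly the same mean, but DUSP22 was at 13.8 and 17.3 CPM per kb in replicates 1 and 2, above every DUSP2 library, and at 0.0109 in replicate 3. Of the neighbours in that order only DUSP16 (2.46 ± 0.05) and DUSP1 (1.34 ± 0.13) did not overlap.

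The members also varied together inside the groups. After each group's mean was taken away on the log2(CPM + 0.5) scale, DUSP1, DUSP5 and DUSP10 had pairwise Pearson r of 0.80 to 0.86 over the 9 libraries. DUSP2 ran against them, with r of −0.73 to −0.58, and DUSP7 did too, with r of −0.76 to −0.54. These libraries share their scaling, and each r is a description. HU replicate 2 and DMSO replicate 2 were the lowest of their groups for DUSP1, DUSP5 and DUSP10, and Thy-Noc replicate 1 was the highest of its group for the same 3 genes and the lowest for DUSP2 and DUSP7. DMSO replicate 2 was the lowest control for DUSP2 as well, while in HU and in Thy-Noc its highest library, replicate 2, was the lowest for DUSP1 and DUSP5.

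**Figure D3:**
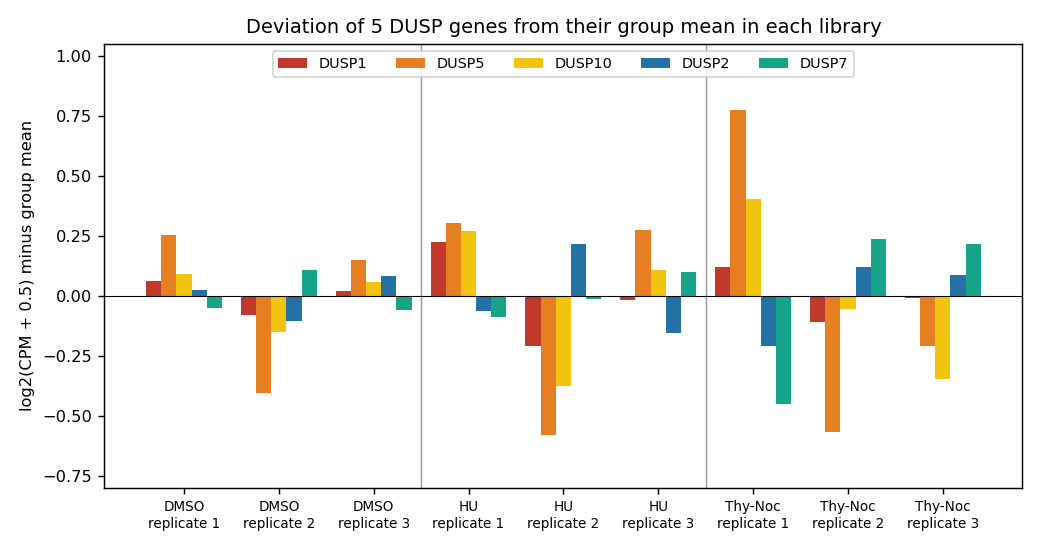
Deviation of 5 members from their group mean on the log2(CPM + 0.5) scale (y axis) in each of the 9 libraries (x axis), with 1 bar per gene. The bars of DUSP1, DUSP5 and DUSP10 point down together in DMSO replicate 2, HU replicate 2 and Thy-Noc replicate 2 and up together in replicate 1 of each group, and those of DUSP2 and DUSP7 point the other way in both Thy-Noc replicates 1 and 2.

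The genes whose levels over the 9 libraries were most like those of each called member, by Pearson r on the same scale, came from varied families. For DUSP5 they were LRRC8A, a subunit of volume-regulated anion channels (r 0.986), DUSP10 (0.980) and CPEB4, a binder of mRNA tails (0.980). For DUSP10 they were CPEB4 (0.991), SERINC1 (0.985) and RGL1, an exchange factor of RAL (0.984). For DUSP1 they were ZNF563, a zinc finger gene (0.993), SLC41A2, a magnesium transporter (0.992), and HLA-E, a non-classical MHC class I gene (0.991). For DUSP2 they were CBLN3 (0.985), RHOV (0.982), and SLC15A4, a lysosomal transporter (0.976). Each r was picked as the highest of all tested genes, over 3 groups that share their libraries.

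The rest of the pathway was read from gene lists. Of 14 MAP kinases listed by name, 12 were tested, and edgeR called 0 in HU against DMSO, with 0 at an unadjusted p under 0.05, beside 3.56% of all tested genes called in either direction. DESeq2 called 1 higher and limma 0. MAPK3 (ERK1) and MAPK8 (JNK1) had log2 fold changes of −0.46 and −0.24 and did not pass. MAPK14, the main p38 kinase, stood at 0.494, 77.2 and 0.0763 CPM in the DMSO replicates, so its fold change cannot be read.

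Of 22 tested MAP2K and MAP3K genes, BRAF, a RAF kinase that starts the ERK cascade, was the only call in HU, higher at 145, 183 and 164 CPM against 115, 105 and 115 CPM in DMSO (log2 fold change 0.56 ± 0.10 SE, edgeR quasi-likelihood adjusted p 0.0395). Of 25 tested genes of RAS and B-cell receptor input, PRKCB, a protein kinase C of the receptor pathway, was the only call, higher by 0.78 ± 0.15 SE on the log2 scale (adjusted p 0.0448 by the same edgeR test). Of those 25 genes, 9 had an unadjusted p under 0.05, beside 21.2% of all tested genes. The list did not move in 1 direction: 10 log2 fold changes were positive and 15 negative, with a median of −0.11. HU and DMSO libraries stood apart in the higher direction in 5 of these genes and in the lower in 7, beside 15.5% and 15.3% of tested genes. Single calls among 22 and 25 genes lie near the 3.56% called over all tested genes. DESeq2 called 3 genes of the first list (2 higher, 1 lower) and 7 of the second (4 higher, 3 lower), beside 2135 of the 11346 tested genes. Limma called 1 of each, beside 562. Of 13 tested genes that restrain the pathway by other means, PEBP1, an inhibitor of RAF, was the only call. It fell from 241 ± 10.8 to 164 ± 16.3 CPM (−0.55 ± 0.09 SE, edgeR quasi-likelihood adjusted p 0.0281), beside 1.56% of all tested genes called lower. PTPN7, a tyrosine phosphatase of ERK and p38 in blood cells, had a log2 fold change of −0.09 and ranged from 20.7 to 104 CPM within HU. SPRED1 and SPRED2, inhibitors of RAF activation, had log2 fold changes of 0.56 and 0.23 and did not pass. DESeq2 called SPRED1 and RASA3 beside PEBP1 and limma PEBP1 alone. The BRAF call ended without any 1 of the 9 libraries, that of PRKCB without any but HU replicate 2, and that of PEBP1 without any but HU replicate 2 and Thy-Noc replicate 1 (edgeR quasi-likelihood adjusted p 0.0516 to 0.140 over these fits).

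None of 10 tested further dual-specificity phosphatases was called in HU, and none had an unadjusted p under 0.05, beside 3.56% and 21.2% of all tested genes. RNGTT, an mRNA capping enzyme of that fold, had the smallest p (log2 fold change 0.35 ± 0.17 SE, edgeR quasi-likelihood adjusted p 0.289). DUSP11 and DUSP14 had log2 fold changes of 0.03 and −0.13. Their list median was 0.06. Of 9 tested kinases below the MAP kinases, edgeR called 0 and 1, MAPKAPK2, a p38 target, had an unadjusted p under 0.05 (log2 fold change 0.30 ± 0.12 SE, adjusted p 0.213). DESeq2 and limma also called 0 genes of both lists.

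A list named for immediate early genes, which MAP kinase signals switch on within minutes to hours, held more calls. It is broader than its name and also holds the transcription factors SRF, ELK1 and ELK4, the chemokines CCL3 and CCL4, and CD69, MCL1 and MYC. Its counts and median are therefore not a readout of MAP kinase signals alone. Whether each of its genes answers such signals in these cells was not tested. Of 23 tested, 5 were called higher in HU and 0 lower, beside 2.0% and 1.56% of all tested genes. An unadjusted p under 0.05 was found for 14, beside 21.2% of all tested genes. The median log2 fold change of the 23 was 1.39, beside 0.02 over all tested genes. JUNB, an AP-1 subunit, rose from 39.9, 40.3 and 43.1 CPM in the controls to 100.2, 116 and 111 CPM under HU (log2 fold change 1.41 ± 0.10 SE, edgeR quasi-likelihood adjusted p 0.00329), and this call held in each of the 20 alternatives. ZFP36, which destabilises mRNAs with AU-rich tails, JUND, a further AP-1 subunit, and BTG1, an antiproliferative factor, rose by 1.65, 1.0 and 0.96 on the log2 scale, and IER5 by 0.83 (edgeR quasi-likelihood adjusted p 0.0154 to 0.0419 for these 4). Without any 1 DMSO library or HU replicate 1, these 4 calls ended; those of ZFP36, JUND and IER5 also ended without HU replicate 3, and that of ZFP36 without any 1 Thy-Noc library (edgeR quasi-likelihood adjusted p 0.0548 to 0.140 over these fits). DESeq2 called 14 genes of the list higher, beside 1079 of the 11346 tested genes, and limma 6, beside 314. In Thy-Noc against DMSO, edgeR, DESeq2 and limma called 0 of the 23, and 0 had an unadjusted p under 0.05. In HU against Thy-Noc, 4 were called higher (BTG1, IER5, JUNB and JUND) and 0 lower, beside 0.696% and 1.06% of all tested genes. Of these 4, IER5 and JUND were lost without any 1 library, BTG1 without any but HU replicate 2, and JUNB without Thy-Noc replicate 3 (edgeR quasi-likelihood adjusted p 0.0510 to 0.122). DESeq2 called 12, beside 1826 of the 11346 tested genes in either direction, and limma 7, beside 326.

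Of the 23 tested genes of the immediate early list, 19 had a positive and 4 a negative log2 fold change in HU against DMSO. Among those not called, FOSB, an AP-1 subunit, had 7.67, 4.27 and 5.46 CPM in the controls against 39.5, 22.8 and 22.1 CPM under HU (log2 fold change 2.28 ± 0.53 SE, edgeR quasi-likelihood adjusted p 0.0632). IER2 had 5.02, 6.98 and 2.67 CPM in the controls against 9.79, 41.3 and 62.9 CPM under HU (2.96 ± 0.81 SE, adjusted p 0.0981 by the same edgeR test). Neither gene's groups overlapped, and DESeq2 called both. EGR1 had 0.241, 0.420 and 0.242 CPM in the controls against 4.26, 4.07 and 0.925 CPM under HU and missed the threshold (log2 fold change 3.35 ± 0.74 SE, edgeR quasi-likelihood adjusted p 0.0561; DESeq2 called it higher). FOS was too low to test, with 0.647, 0.971 and 1.11 CPM in the controls against 0.177, 0.155 and 0.277 CPM under HU, each HU library below each DMSO library.

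**Figure D4:**
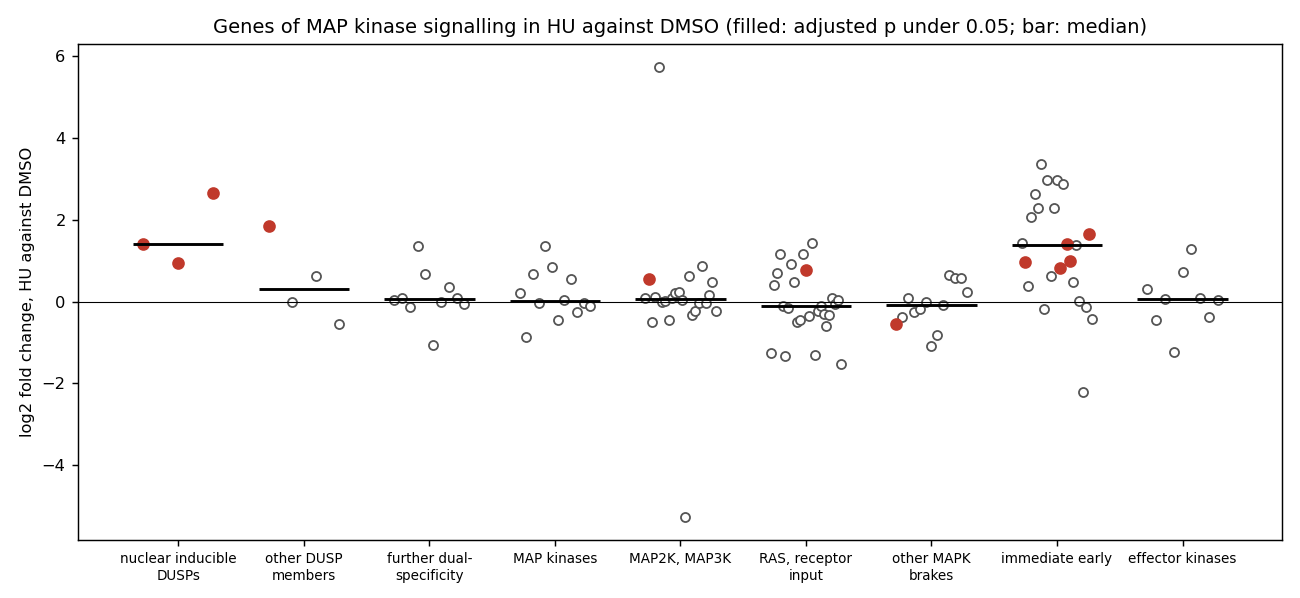
Log2 fold change in HU against DMSO (y axis) of each tested gene of 9 lists of the pathway (x axis), with filled points for an adjusted p under 0.05 and a bar for the list median. The nuclear inducible DUSPs (median 1.41) and the broad immediate early list (median 1.39) lie above the other lists, whose medians run from −0.11 to 0.31. The points near 5.74 and −5.27 are MAP2K3 and MAP3K20, whose libraries differ over 10-fold within groups.

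Some other markers moved with HU as well. The mitotic sum given above was lower in HU than in both other groups. Of 8 stromal and epithelial markers, 1 was listed, COL1A1, with 8.09 to 13.7 CPM in HU, 1.30 to 3.88 CPM in DMSO and 1.97 to 5.19 CPM in Thy-Noc. Of 8 myeloid markers, 2 were listed, LYZ and ITGAM, with a sum of 1.21 to 3.25 CPM in HU and 0.840 to 1.06 CPM in DMSO. Their part in the rise of the phosphatases was not tested.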

How the data were processed

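The 9 Raji libraries were made with a stranded mRNA kit, per the labels' protocols. FastQC, Trim Galore, STAR and DESeq2 are named without versions or roles in the submitters' processing notes, with build GRCh38. The deposited table is named CPM, but it holds whole numbers with unequal totals and was therefore read as estimated counts that the authors deposited as whole numbers; no value is 0 and the smallest is 1. No source used here gives the counting tool, the annotation or the strand setting. Genes were named by identifier (15393 of 15436 matched).

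The 11346 genes that reached 1 CPM in 3 or more libraries were tested in R 4.3.3 with edgeR 4.0.16: TMM scaling, a quasi-likelihood model of the 3 groups over all 9 libraries (6 residual degrees of freedom, prior 1.25), 2-sided tests, Benjamini-Hochberg adjustment over all tested genes and a threshold of 0.05. SE was computed from the fold change and F. CPM use TMM-scaled library sizes. The steps were tested on simulated counts. Exact permutation of 3 against 3 libraries was not used, since it cannot pass the threshold. The members, gene lists and tests were chosen with earlier results of these data known. Named genes are all members, up to 4 called genes per list with a mean CPM of at least 2 (where none was called, the one with the smallest p), MAPK3, MAPK8, MAPK14, PTPN7, FOS, EGR1 and JUNB, and the 3 most alike genes per called member; the text leaves out some, and 1 gene of the rule is not reported here. SPRED1, SPRED2, RASA3, FOSB, IER2, MYC, BUB1, CDC20, DUSP11, DUSP14, MAP2K3 and MAP3K20 were added after their values were seen. Upstream sequences and starts are from RefSeq (GRCh38.p14), for 6 of the 7 members. Alternatives were other filters, scalings and dispersions, DESeq2 1.42.0, limma 3.58.1, a replicate block, fewer libraries and leaving out each library.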

Additional observations from a re-analysis of the deposited data

How the results depend on the processing

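Over 20 alternatives, DUSP1, DUSP2, DUSP5, DUSP7 and DUSP10 kept their direction in all 3 comparisons; calls moved far more than fold changes, and the cause was not tested. In HU against DMSO 404 genes and 4 members were called. Genes called were 220 without a filter, 38 on only the 6 libraries compared, 2135 by DESeq2, and 20 to 309 leaving out 1 library; members called were 0 on the 6 libraries, 5 by DESeq2 and 0 to 4 leaving out 1 library. In Thy-Noc against DMSO 4 genes were called, 179 by DESeq2, 12 by limma with a pseudocount of 0.5 or 1 CPM, 7 with 0.1 CPM, and 5 to 13 leaving out 1 library; members stayed at 0 throughout. In HU against Thy-Noc 199 genes and 2 members were called. Genes called were 64 without a filter, 18 on the 6 libraries, 313 with a CPM minimum of 5, 1826 by DESeq2, 326, 311 and 346 by limma with 0.5, 0.1 and 1 CPM, and 1 to 110 leaving out 1 library; members called were 0 without a filter, 0 on the 6 libraries, 4 by DESeq2, 3 by limma, and 0 without any 1 library.

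Over all tested genes, the deviations of same-numbered libraries had r of −0.04 to 0.04 over 9 pairs. Between HU and Thy-Noc the same-numbered pairs were at 0.0405, 0.0393 and 0.0292, and the other pairs ran from −0.0335 to −0.00597. Only 1 of 9 libraries correlated best with its own number in both other groups. These values cannot exclude a pairing. For DUSP1 and DUSP5, replicate 1 was the highest and replicate 2 the lowest library of each group. With the replicate number as a block, genes called were 9, 0 and 0 and members called 0, 0 and 0 in HU against DMSO, Thy-Noc against DMSO and HU against Thy-Noc.

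Total-count scaling moved the median of all genes by 0.10 (HU against DMSO) and 0.15 (HU against Thy-Noc) on the log2 scale, and 271 of 373 and 111 of 157 calls were then higher, against 227 of 404 and 79 of 199. The log2 fold change of DUSP16 in HU against DMSO turned positive under it (0.0916), without a filter (0.00639) and with a CPM minimum of 5 (0.00431), and ran from -0.0450 to 0.0342 leaving out 1 library; in HU against Thy-Noc it turned positive under total-count scaling (0.0262). That of DUSP22 in Thy-Noc against DMSO ran from -0.974 to 0.196 leaving out 1 library and was positive only without Thy-Noc replicate 3; over all 20 alternatives it ran from -2.84 (limma with 0.1 CPM) to 0.196, and in HU against Thy-Noc from 0.443 to 3.46 (limma with 0.1 CPM). The 179 to 612 counts of DUSP1 are the fewest behind a call of a member.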

Other observations

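Summed over the 6 measured members other than DUSP22, the level was 81.5 to 84.3 CPM in DMSO, 132 to 159 CPM in HU and 86.4 to 88.7 CPM in Thy-Noc, without overlap between the groups. With DUSP22 included, the Thy-Noc sums of 86.5 to 187 CPM overlapped those of DMSO, at 160.2 to 160.9 CPM. HU then stood at 258 to 275 CPM. Each sum mixes genes of unlike length and is given as a description.

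MKNK2, a kinase that acts below ERK and p38 on translation, stood at 298, 386 and 83.1 CPM in Thy-Noc replicates 1, 2 and 3 and at 67.3, 16 and 81.9 CPM in DMSO (log2 fold change 2.21 ± 0.72 SE, edgeR quasi-likelihood adjusted p 0.9998, unadjusted 0.0176). MAP2K4, a kinase that activates JNK and p38, stood at 0.301, 0.311 and 0.362 CPM in Thy-Noc and at 62.3, 0.625 and 1.17 CPM in DMSO. The groups did not overlap, as in 4.79% of tested genes in the lower direction. The log2 fold change of −6.03 ± 2.54 SE (edgeR quasi-likelihood unadjusted p 0.0480, adjusted p 0.9998) rests on DMSO replicate 1, and the other libraries of both groups were low. Its libraries thus differed at least 10-fold within a group. Among the 12 tested MAP kinases, 3 had such libraries (MAPK6, MAPK10 and MAPK14), beside 1 of the 7 members.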
